A study of Mus musculus with 3 samples.

Results

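The genes described here are 10 that mark neuron types of the mouse olfactory bulb, out of 32285 genes in the deposited matrices. They were listed by name, and the rule itself uses no measured value, but the list was drawn up with earlier results of these data known. Of these, 6 mark its projection neurons, the mitral and tufted cells (*Eomes*, *Tbx21*, *Cdhr1*, *Doc2g*, *Lhx1* and *Barhl2*), and 4 mark its GABA interneurons (*Th*, *Sp8*, *Pax6* and *Scgn*). All 10 had counts in each of the 3 libraries.

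The study compared nuclei of the prefrontal cortex (PFC) of mice lacking *Nav1*, a gene for a microtubule-binding protein of growing neurites, with those of wild-type mice. The series also holds a library of a second strain. Each library is 1 pool of freshly dissected tissue from male mice aged 6-8 weeks, made with 3' single-nucleus RNA-seq after nuclei were sorted with an antibody to NeuN, a protein of neuronal nuclei. Nuclei with and without NeuN were collected, although the labels give the cell type as neurons. The first library, called C57BL/6J here, came from 5 wild-type mice of strain C57BL/6. The second, *Nav1* KO, came from 4 mice of the same labelled strain with a deletion and an early stop codon at the end of exon 1 of *Nav1*. The third, BTBR, came from strain BTBR T<+> Itpr3<tf>/J, for which neither a *Nav1* change nor the number of mice is labelled.

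Mitral and tufted cells are the glutamate neurons that carry odour signals from the bulb to the olfactory cortex. The bulb is also the part of the adult forebrain that keeps receiving new interneurons, which settle in its granule and periglomerular layers, and some of the periglomerular cells make dopamine. *Eomes* and *Tbx21* encode T-box transcription factors of projection neurons, *Lhx1* a LIM homeobox factor and *Barhl2* a homeobox factor. *Cdhr1* encodes a cadherin-related membrane protein and *Doc2g* a protein with C2 domains. *Th* encodes tyrosine hydroxylase, which makes L-DOPA for dopamine. *Sp8* (a zinc finger factor) and *Pax6* (a paired-box factor) act in the formation of bulb interneurons, and *Scgn* encodes the calcium-binding protein secretagogin. *Pax6* is also known from astrocytes and *Sp8* from some cortical interneurons.

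The C57BL/6J, *Nav1* KO and BTBR libraries kept 14630, 14056 and 14778 nuclei with 38704723, 50965774 and 48948184 counts, at a median of 2074, 2754 and 2510.5 UMIs (counted molecules) per nucleus. With 1 library per group no test between groups can be made, and mice and library cannot be told apart from genotype or strain. Every interval below is a 95% interval that covers counting error only: exact Poisson for a level, Clopper-Pearson for a share, and exact binomial for a ratio. Of the kept barcodes, 66 were shared by C57BL/6J and *Nav1* KO, 59 by C57BL/6J and BTBR and 55 by *Nav1* KO and BTBR. *Nav1* itself stood at 345, 264 and 146 CPM (summed counts scaled to the same total in every library or group of nuclei), which does not check the labels, since 3' reads lie outside the deleted part.

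The genes lie at chr9:118478212-118486132 (*Eomes*, ENSMUSG00000032446), chr11:97098071-97115331 (*Tbx21*, ENSMUSG00000001444), chr14:37077857-37098347 (*Cdhr1*, ENSMUSG00000021803), chr19:4003313-4007005 (*Doc2g*, ENSMUSG00000024871), chr11:84518284-84525535 (*Lhx1*, ENSMUSG00000018698) and chr5:106452523-106458166 (*Barhl2*, ENSMUSG00000034384) in mm10. The interneuron genes lie at chr7:142892752-142931128 (*Th*, ENSMUSG00000000214), chr12:118846329-118852576 (*Sp8*, ENSMUSG00000048562), chr2:105668900-105697364 (*Pax6*, ENSMUSG00000027168) and chr13:23953456-23991214 (*Scgn*, ENSMUSG00000021337). In the annotation *Doc2g* overlaps *Gm49405*, a coding gene on the same strand that has no row in the matrices. Reads of *Gm49405* from the overlap may therefore be counted as *Doc2g*, and their part was not tested. An antisense gene overlaps *Eomes* (*Gm33460*), *Pax6* (*Pax6os1*) and *Scgn* (*Gm11339*), and whether the counting used strand is not given in the sources used here.

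Promoters are shown for 4 genes on which the results turn: the 250 bases before the start, read from RefSeq (GRCm38.p6), for the pair of interneuron genes with the highest levels in bulb-like nuclei and for a pair of projection genes whose levels separated between libraries. RefSeq held 13 promoter entries for the 10 genes among 32851. The cAMP response element TGACGTCA (CRE, searched on both strands) was present in those of *Th* and *Pax6*, 45 and 76 bases before the start, and in 1.55% of all promoters; it is in capitals. The T-box half-site GGTGTGA was in none of the 13 and in 3.33% of all. Also searched were the GC box GGGCGG, the homeodomain site TAATTA and the TATA box TATAAA. They were in 5, 1 and 1 of the 13, and in 32.7%, 4.84% and 12.4% of all. A match is only a description of the letters.
Th, chr7:142899996-142900245, minus strand: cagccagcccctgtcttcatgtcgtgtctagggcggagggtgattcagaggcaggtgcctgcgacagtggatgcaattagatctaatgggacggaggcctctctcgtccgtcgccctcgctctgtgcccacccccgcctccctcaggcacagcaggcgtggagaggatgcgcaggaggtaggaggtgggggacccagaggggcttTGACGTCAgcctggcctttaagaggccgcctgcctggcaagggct
Pax6, chr2:105668646-105668895, plus strand: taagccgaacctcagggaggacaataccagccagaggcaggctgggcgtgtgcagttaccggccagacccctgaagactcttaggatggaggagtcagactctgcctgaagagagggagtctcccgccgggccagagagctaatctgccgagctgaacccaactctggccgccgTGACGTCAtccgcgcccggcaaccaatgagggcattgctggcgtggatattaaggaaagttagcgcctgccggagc
Eomes, chr9:118477939-118478188, plus strand: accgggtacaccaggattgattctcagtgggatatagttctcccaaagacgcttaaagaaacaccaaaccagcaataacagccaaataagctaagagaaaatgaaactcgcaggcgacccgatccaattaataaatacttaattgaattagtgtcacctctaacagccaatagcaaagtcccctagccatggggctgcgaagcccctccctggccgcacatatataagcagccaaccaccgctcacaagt
Cdhr1, chr14:37098348-37098597, minus strand: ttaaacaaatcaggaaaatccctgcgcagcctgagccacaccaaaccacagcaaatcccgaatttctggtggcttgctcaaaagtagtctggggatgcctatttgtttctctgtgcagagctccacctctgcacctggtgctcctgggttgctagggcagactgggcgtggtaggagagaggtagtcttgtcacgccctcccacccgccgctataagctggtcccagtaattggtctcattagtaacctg

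The first question was how much of each gene the 3 PFC libraries held. All 6 projection neuron genes had their lowest level in the C57BL/6J library, below the intervals of both others for all but *Lhx1*. *Eomes* stood at 1.09 CPM (95% interval 0.782 to 1.47) in C57BL/6J, 12.4 CPM (11.5 to 13.4) in *Nav1* KO and 7.27 CPM (6.54 to 8.07) in BTBR. *Cdhr1* stood at 2.43 CPM (1.96 to 2.97), 25.3 CPM (24 to 26.8) and 38.6 CPM (36.8 to 40.3) in the same order. No interval of these genes overlapped another, but their order differed: *Eomes* was highest in *Nav1* KO and *Cdhr1* in BTBR. *Doc2g* stood at 33.7, 77.6 and 80.6 CPM, with the intervals of *Nav1* KO and BTBR overlapping.

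The other 3 projection genes were rare. *Tbx21* had 4, 69 and 36 counts (0.103, 1.35 and 0.735 CPM) in C57BL/6J, *Nav1* KO and BTBR. *Barhl2* had 5, 54 and 30 counts (0.129, 1.06 and 0.613 CPM). *Lhx1* had 17, 41 and 22 counts (0.439, 0.804 and 0.449 CPM), and its 3 intervals overlapped.

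The interneuron genes were also lowest in C57BL/6J, and nearly level between the other libraries. *Th* stood at 1.11 CPM (0.804 to 1.5) in C57BL/6J, 8.95 CPM (8.14 to 9.81) in *Nav1* KO and 9.09 CPM (8.27 to 9.98) in BTBR. *Pax6* stood at 14.3, 32.9 and 39.5 CPM, with no overlap among its intervals (13.1 to 15.6, 31.3 to 34.5 and 37.8 to 41.3). *Sp8* stood at 1.21, 4.75 and 4.92 CPM and *Scgn* at 0.233, 1.43 and 1.82 CPM. For *Th*, *Sp8* and *Scgn* the C57BL/6J interval lay below the others, which overlapped each other.

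**Figure D1:**
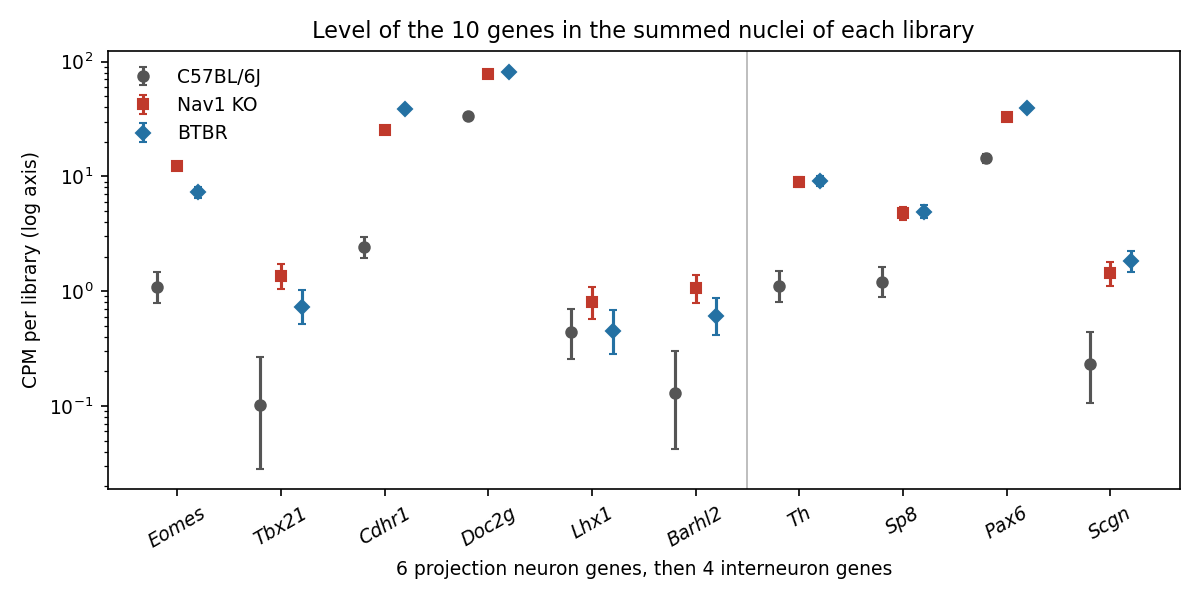
Level of each of the 10 genes (CPM, log axis) in the C57BL/6J, *Nav1* KO and BTBR libraries; points are single libraries and bars are 95% Poisson intervals for counting error. All 10 genes are lowest in C57BL/6J, by a wide gap for *Eomes* (1.09 against 12.4 and 7.27 CPM) and with overlapping intervals for *Lhx1*.

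Compared as ratios, 9 of the 10 genes were at least 2-fold higher in *Nav1* KO than in C57BL/6J, where 5.08% of all genes tested were. *Tbx21* was 13.1-fold higher (4.89 to 49.4), *Eomes* 11.4-fold (8.37 to 16), *Cdhr1* 10.4-fold (8.45 to 13), *Barhl2* 8.2-fold (3.31 to 26.3) and *Doc2g* 2.3-fold (2.16 to 2.46). *Th* was 8.05-fold higher (5.88 to 11.3), *Scgn* 6.16-fold (3.07 to 14), *Sp8* 3.91-fold (2.85 to 5.46) and *Pax6* 2.3-fold (2.08 to 2.53). *Lhx1* was the exception, at 1.83-fold (1.02 to 3.44). The median ratio was 9.32 over the projection genes and 5.04 over the interneuron genes, against 0.97 over all genes tested.

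In BTBR, 9 of the 10 genes were at least 2-fold higher than in the same C57BL/6J library, where 5.31% of all genes tested were. *Cdhr1* was 15.9-fold higher (12.9 to 19.7), *Th* 8.18-fold (5.98 to 11.5), *Scgn* 7.82-fold (3.94 to 17.7), *Tbx21* 7.12-fold (2.55 to 27.5) and *Eomes* 6.7-fold (4.86 to 9.46). *Barhl2* was 4.74-fold higher (1.82 to 15.7), *Sp8* 4.05-fold (2.96 to 5.67), *Pax6* 2.76-fold (2.51 to 3.04) and *Doc2g* 2.39-fold (2.25 to 2.55). *Lhx1* was again the exception, at 1.02-fold (0.519 to 2.05). Both comparisons rest on the 1 C57BL/6J library, so they are not independent of each other. No member was at least 2-fold lower in either, where 3.16% and 4.9% of all genes were.

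Between *Nav1* KO and BTBR no member passed 2-fold either way, against 4.02% of all genes tested higher and 3.02% lower in *Nav1* KO. *Eomes* was 1.71-fold higher in *Nav1* KO (1.5 to 1.95), while *Cdhr1* was at 0.657 of its BTBR level (0.612 to 0.706). *Doc2g* (ratio 0.963, 0.921 to 1.01), *Th* (0.984) and *Sp8* (0.964) were nearly level. *Pax6* was at 0.832 and *Scgn* at 0.788 of the BTBR level. *Tbx21* (1.84), *Lhx1* (1.79) and *Barhl2* (1.73) were higher in *Nav1* KO, from at most 69 counts in a library. The median ratio was 1.72 over the projection genes and 0.898 over the interneuron genes. Over all 10 genes it was 0.974, against 0.944 over all genes tested.

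The other bulb markers, also chosen with results of these data known, were read beside these levels. Of the 7 other projection neuron markers of the bulb, 2 were at least 2-fold higher in *Nav1* KO than in C57BL/6J and 3 in BTBR. Of all genes tested, 5.08% and 5.31% were. The pair in *Nav1* KO included *Lhx5*, from 5 counts in C57BL/6J and 15 in *Nav1* KO, with overlapping intervals. *Ms4a15*, a membrane protein gene with the highest ratio of the list, stood at 0.878, 10.5 and 6.11 CPM in C57BL/6J, *Nav1* KO and BTBR, while *Reln*, the reelin gene, stood at 46.6, 47.2 and 58.6 CPM. Of the 10 other bulb interneuron markers, 3 were higher in *Nav1* KO and 5 in BTBR; *Trh*, the gene of thyrotropin-releasing hormone, stood at 1.99, 21.2 and 13.4 CPM and *Calb2*, the calretinin gene, at 2.12, 12.1 and 8.52 CPM.

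Marker lists of other tissue parts differed too. Of 5 markers of olfactory ensheathing glia, which wrap the olfactory nerve, 4 were at least 2-fold higher in *Nav1* KO and 2 in BTBR than in C57BL/6J, with summed levels of 289, 201 and 164 CPM. *Npy*, the marker that was not raised in either, made up 103, 113 and 115 CPM of these sums. Of 6 meningeal fibroblast markers, 5 were higher in *Nav1* KO and 1 in BTBR (181, 127 and 75.8 CPM for *Nav1* KO, BTBR and C57BL/6J). Of 8 markers of striatal medium spiny neurons, 3 were lower in *Nav1* KO and 1 in BTBR (654, 734 and 1012 CPM), and none was higher. No marker of these lists was at 0 in a library. The labels give the tissue as PFC and name no olfactory bulb. The part of the dissection in the levels of the 10 genes was not tested.

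Next, nuclei were clustered without the 10 genes, to see which nuclei held them. All 6 projection genes were highest in the same 1 of 31 clusters, of 889 nuclei, and all 4 interneuron genes in another, of 278 nuclei. The first is called bulb projection neuron-like: besides the members, 6 of 7 other projection markers were above 2-fold in it, and *Ms4a15*, *Rab37*, *Vmn1r209*, *Olfr116* and *Olfr112* were among its leading genes. The second is called bulb interneuron-like (*Th*, *Trh*), with 8 of 10 other interneuron markers above 2-fold, led by *Trh*, *Th*, *Lgr5* and *Sall3*. One more cluster, of 1263 nuclei, also had 8 of 10 above 2-fold, led by *Adamts19*, *Vipr2* and *Pbx3*, and is called bulb interneuron-like (*Meis2*, *Tshz1*). Their median UMI counts were 3105, 1888 and 1303. Of 5 Cajal-Retzius cell markers, which share *Reln* and *Lhx5* with the projection list, 3 were above 2-fold in the projection cluster.

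The 3 clusters took very different shares of the libraries. The projection cluster held 36 nuclei of C57BL/6J (0.246%, 0.172 to 0.341), 582 of *Nav1* KO (4.14%, 3.82 to 4.48) and 271 of BTBR (1.83%, 1.62 to 2.06). The *Th* and *Trh* cluster held 14 (0.0957%), 163 (1.16%) and 101 (0.683%), and the *Meis2* and *Tshz1* cluster 98 (0.67%), 631 (4.49%) and 534 (3.61%). Ensheathing glia-like nuclei took 0.157%, 2.92% and 0.663% of the same libraries, and medium spiny neuron-like nuclei 6.37%, 2.04% and 3.23%. The sort on NeuN and the dissection both bear on such shares, and their part was not tested.

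In the projection cluster *Eomes* reached 177 CPM (163 to 191) with a UMI in 43.8% of nuclei, and *Cdhr1* 366 CPM (347 to 386) with a UMI in 65.6%. *Doc2g* reached 757 CPM (729 to 786; 61% of nuclei), *Tbx21* 18.2 CPM (14.1 to 23.1; 6.64%), *Barhl2* 11.7 CPM (8.46 to 15.8; 4.05%) and *Lhx1* 5.98 CPM (3.75 to 9.06; 2.02%). In oligodendrocyte-like nuclei, a type in which these genes are not known to act, the shares with a UMI were 0.556% for *Eomes*, 2.33% for *Cdhr1*, 9.33% for *Doc2g* and 0 of 900 for *Tbx21*, which allows a level of up to 1.38 CPM; their median depth was 1408 UMIs against 3105. The cluster held 62.9% of all *Eomes* counts, 61.5% of those of *Tbx21* and 48.3% of those of *Barhl2*, but 41.1% for *Cdhr1*, 30.2% for *Doc2g* and 27.5% for *Lhx1*. *Eomes*, *Tbx21*, *Lhx1* and *Barhl2* had no count in the 278 nuclei of the *Th* and *Trh* cluster, which allows a level of up to 5.11 CPM for each.

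Of the interneuron genes, *Th* was concentrated most: 419 CPM (368 to 475) in the *Th* and *Trh* cluster, with a UMI in 48.6% of nuclei, against 25.6 CPM (18.8 to 33.9) in the *Meis2* and *Tshz1* cluster. *Scgn* stood at 27.3 CPM (15.6 to 44.3) and 14.4 CPM (9.47 to 20.9) in these clusters. *Sp8* stood at 40.9 CPM (26.2 to 60.9) and 36.7 CPM (28.6 to 46.5), next at 13.9 CPM in astrocyte-like and 11.6 CPM in *Vip* and *Adarb2* cortical interneuron-like nuclei. *Pax6* stood at 412 CPM (362 to 468) in the *Th* and *Trh* cluster and at 363 CPM (337 to 389) in astrocyte-like nuclei, so its order between these types is within counting error. It stood at 149.6 CPM (133 to 168) in the *Meis2* and *Tshz1* cluster. In oligodendrocyte-like nuclei a UMI of *Th* was found in 2.11% and of *Pax6* in 4.33% of nuclei. Outside the 3 bulb-like clusters *Th* had 38, 266 and 326 counts in C57BL/6J, *Nav1* KO and BTBR. Both bulb interneuron-like clusters together held fewer *Th* counts, at 5, 176 and 113. For *Pax6* the counts were 523, 1392 and 1682 outside and 30, 260 and 233 in both interneuron clusters.

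**Figure D2:**
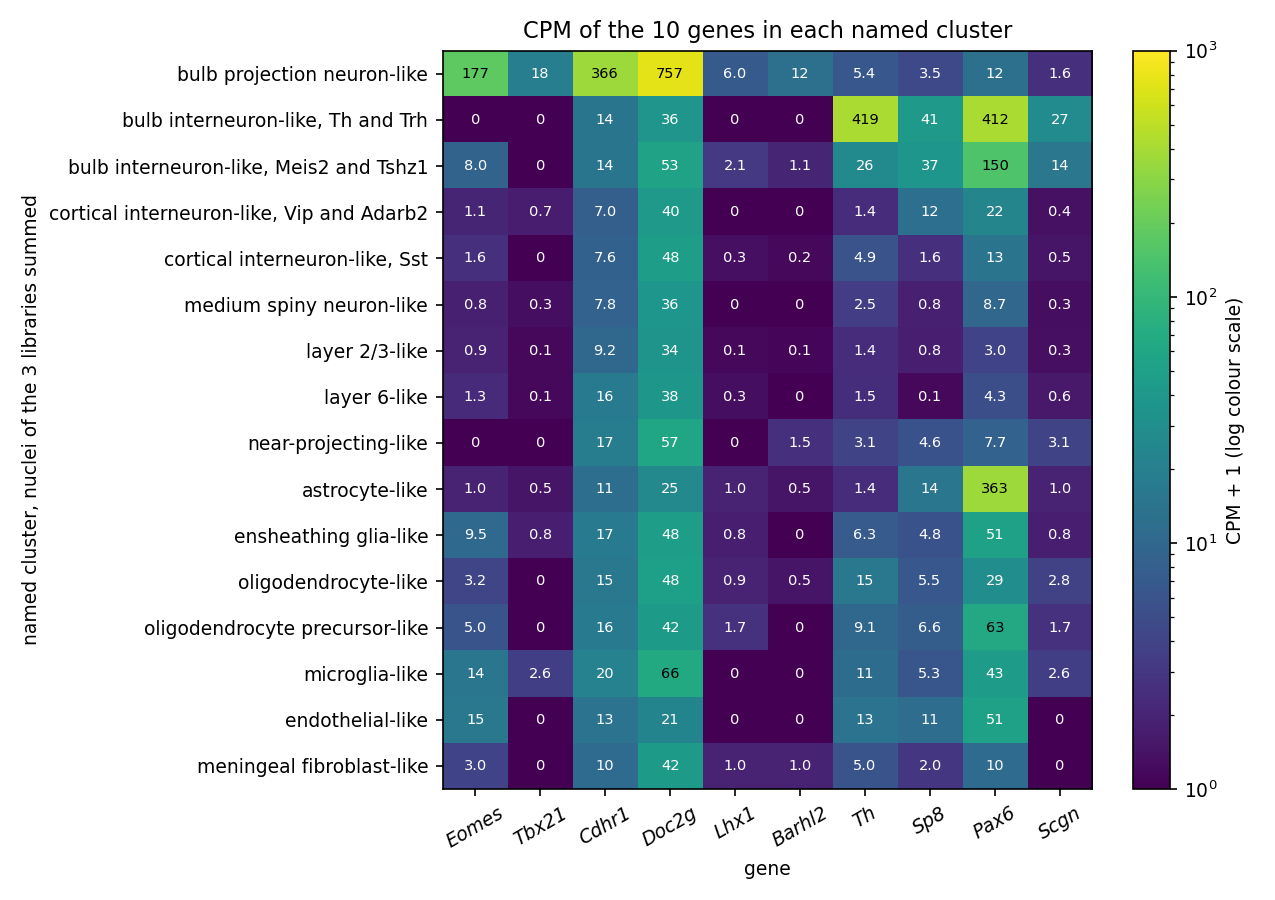
Level of each of the 10 genes (columns; number and colour, CPM of summed counts with a log colour scale) in each named type of nuclei (rows), with the 3 libraries pooled. The projection genes peak in the bulb projection neuron-like cluster and the interneuron genes are highest in the bulb interneuron-like cluster with *Th* and *Trh*. *Pax6* is almost as high in astrocyte-like nuclei (363 against 412 CPM). The intervals of *Sp8* and *Scgn* overlap between both bulb interneuron-like clusters.

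The question then was whether a bulb-like nucleus held the same level in each library. For *Eomes* it nearly did: in the projection cluster it stood at 158 CPM (98.8 to 239) in C57BL/6J, 169 CPM (154 to 186) in *Nav1* KO and 201 CPM (173 to 233) in BTBR, with ratios to C57BL/6J of 1.07 (0.7 to 1.73) and 1.28 (0.817 to 2.09). *Tbx21* stood at 14.3, 18.5 and 18.1 CPM, the first from 2 counts. *Cdhr1* stood at 236 CPM (163 to 332), 298 CPM (278 to 319.8) and 589 CPM (539 to 642). Its BTBR level lay above both others, 2.49-fold over C57BL/6J (1.75 to 3.66), and *Nav1* KO was at 0.507 of it (0.453 to 0.567). *Doc2g* had the same order at 580.5, 699 and 957 CPM, 1.65-fold higher in BTBR than in C57BL/6J (1.31 to 2.1). With 36 nuclei in C57BL/6J, differences from that library below about the width of these intervals were not detectable.

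*Lhx1* and *Barhl2* had at most 2 counts in the projection cluster of C57BL/6J, too few to compare. In the *Th* and *Trh* cluster *Th* stood at 177 CPM (48.2 to 453) in C57BL/6J from 4 counts, 400.5 CPM (338 to 471) in *Nav1* KO and 481 CPM (389 to 587) in BTBR, and *Pax6* at 531 CPM (274 to 928), 365 CPM (305 to 432) and 486 CPM (394 to 593). All intervals of these 2 genes overlapped. *Pax6* in astrocyte-like nuclei overlapped in the 3 libraries, at 368, 353 and 371 CPM, with ratios to C57BL/6J of 0.959 (0.793 to 1.16) for *Nav1* KO and 1.01 (0.826 to 1.23) for BTBR.

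Outside the 3 bulb-like clusters the genes still differed between libraries. In those 41034 nuclei, 8 of the 10 genes were at least 2-fold higher in *Nav1* KO than in C57BL/6J, beside 5% of all genes, with *Doc2g* at 1.38-fold (1.28 to 1.48) and *Lhx1* at 1.26-fold (0.628 to 2.59). In BTBR 9 of 10 were, beside 5.17% of all genes. *Eomes* was 7.09-fold higher in *Nav1* KO and in BTBR (4.45 to 11.9 for both), from 20, 173 and 174 counts. *Th* was 5.74-fold (4.07 to 8.29) and 6.99-fold (4.99 to 10.1) higher in *Nav1* KO and BTBR, and *Pax6* 2.18-fold (1.97 to 2.42) and 2.62-fold (2.37 to 2.9). *Cdhr1* separated them most: 6.46-fold higher in *Nav1* KO (4.94 to 8.58) and 18-fold in BTBR (14 to 23.7), so that *Nav1* KO was at 0.358 of BTBR (0.322 to 0.398).

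BTBR *Cdhr1* was spread over many clusters. In layer 6-like nuclei it stood at 2.43 CPM (0.891 to 5.28) in C57BL/6J, 7.61 CPM (4.51 to 12) in *Nav1* KO and 42.7 CPM (34 to 53) in BTBR. In a cluster led by *Ndst4*, *Abi3bp* and *Lmo3* it stood at 7.31, 10.8 and 40.8 CPM, the last with an interval of 35.3 to 46.8. In medium spiny neuron-like nuclei it had no count in C57BL/6J, which allows up to 1.72 CPM, and stood at 5.24 CPM (1.43 to 13.4) in *Nav1* KO and 22.6 CPM (14.5 to 33.6) in BTBR. A UMI was found in 10.3% of BTBR layer 6-like nuclei and in 4.82% of BTBR medium spiny neuron-like nuclei, against 0.556% and none in C57BL/6J.

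The counts of *Cdhr1* were also set against those of *Eomes* in the same nuclei. The counts are not per length, so the ratio is read only between groups of nuclei. In *Nav1* KO there were 1.76 *Cdhr1* counts per *Eomes* count in the projection cluster (1.57 to 1.98), 2.78 outside the bulb-like clusters (2.33 to 3.33) and 3 in layer 2/3-like and layer 6-like nuclei (1.83 to 5.11). In BTBR there were 2.93 (2.46 to 3.49), 7.76 (6.63 to 9.15) and 42.6 (18 to 133, from 213 and 5 counts). The layer 2/3-like nuclei of *Nav1* KO and BTBR lay in largely different clusters under this name. The larger cluster held 2005 nuclei of C57BL/6J, 2116 of *Nav1* KO and 83 of BTBR, and the smaller held 9, 34 and 1613. In C57BL/6J the ratios were 1.5 (0.849 to 2.7) in the cluster and 3.05 (1.81 to 5.34) outside. In BTBR oligodendrocyte-like nuclei the ratio was 4.2 (1.54 to 14.3) from 21 and 5 counts. This interval overlaps those of the projection cluster and of the nuclei outside, so it does not separate them. In BTBR layer 2/3-like and layer 6-like nuclei the interval lay above that of the projection cluster. *Ms4a15* counts per *Eomes* count inside and outside were 0.854 (0.683 to 1.07) and 0.833 (0.664 to 1.04) in BTBR, and 0.927 (0.809 to 1.06) and 0.676 (0.53 to 0.86) in *Nav1* KO. The part of free RNA in these counts was not tested.

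**Figure D3:**
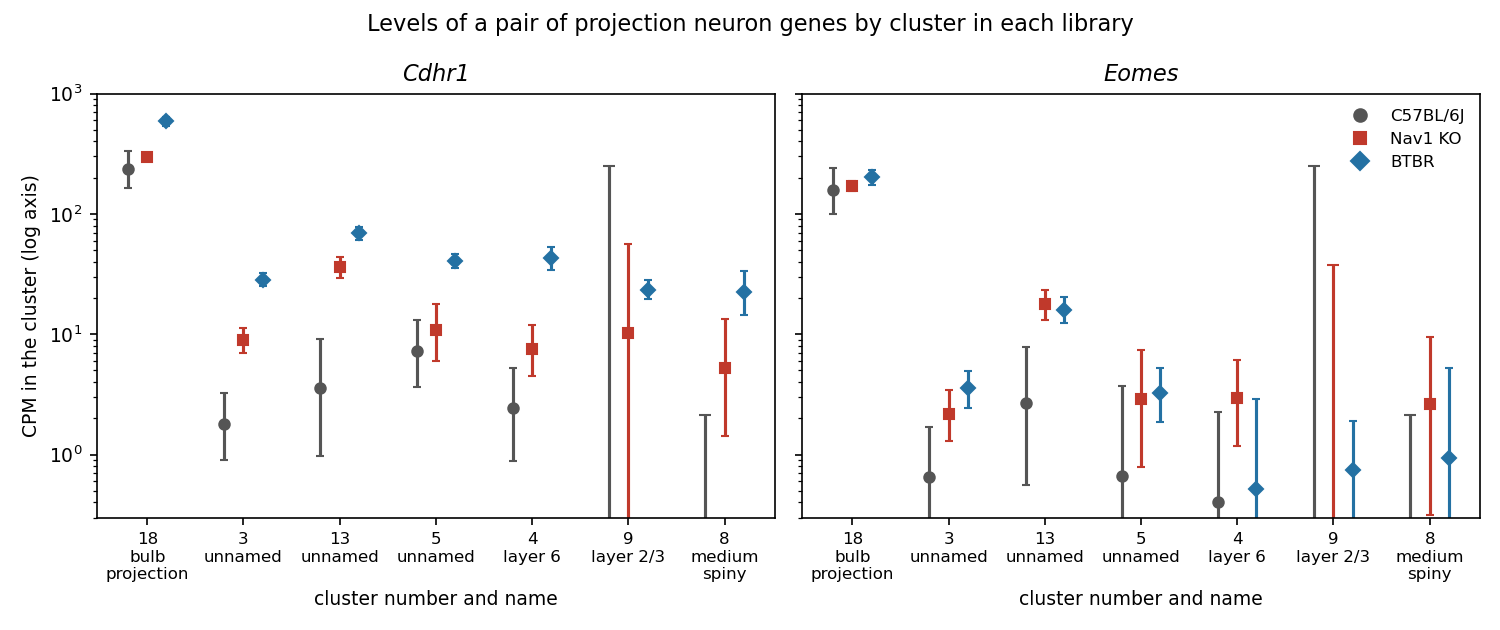
Level (CPM, log axis) of *Cdhr1* (left) and *Eomes* (right) in the projection cluster and 6 other clusters of each library; bars are 95% Poisson intervals, and a bar without a point is a library with no count. *Cdhr1* is highest in BTBR in each cluster shown that all libraries fill, such as layer 6-like nuclei (42.7 CPM against 2.43 and 7.61), while *Eomes* has no such order there.

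*Doc2g* also had a wide base outside its main cluster. A UMI of it was found in 11.5% of nuclei outside the bulb-like clusters, and in C57BL/6J there were 20 *Doc2g* counts per *Cdhr1* count there (15.4 to 26.3) against 2.45 in the projection cluster (1.62 to 3.8). In *Nav1* KO the ratios were 4.25 and 2.35 and in BTBR 2.25 and 1.63. Across the 3 libraries *Doc2g* outside the bulb-like clusters stood at 47.5 CPM (46.4 to 48.7), below its 757 CPM within the projection cluster. The part of reads from the overlapping gene *Gm49405* in these levels was not tested.

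The next question was which genes were found in the same nuclei. Nuclei holding any of the 10 genes were deeper than the rest: a median of 3851 UMIs for *Eomes* against 2407, and 3887 for *Th* against 2410. Shares of co-detection move with depth, whose part in them was not tested, and they are given with the share among all other nuclei. *Cdhr1* was found in 57.1% of the 687 nuclei with *Eomes* and in 3.85% of the others. In the 101 nuclei with *Tbx21*, *Doc2g* was found in 79.2%, against 12.1% of the others. *Cdhr1* was in 57.4% of them (4.57% of the others) and *Eomes* in 28.7% (1.52%). In the 82 nuclei with *Barhl2*, *Cdhr1* was found in 53.7% (4.6% of the others) and *Doc2g* in 61% (12.2%). The 65 nuclei with *Lhx1* held *Cdhr1* in 41.5% (4.64% of the others) and *Doc2g* in 46.2% (12.3%). Neither *Tbx21* nor *Barhl2* was found in any, which allows a share of up to 4.62% for each. They were in only 0.233% and 0.189% of the other nuclei, so their absence does not set *Lhx1* nuclei apart. Within the projection cluster the contrasts for *Eomes* were smaller or absent. There *Cdhr1* was in 72% of nuclei with *Eomes* (67.2 to 76.4) and in 60.6% of those without. *Doc2g* was in 59.9% and 61.8% of them, and *Eomes* in 42.4% of nuclei with *Tbx21* and 43.9% of those without. For *Doc2g* in nuclei with *Tbx21* a contrast remained, at 96.6% against 58.4%.

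Among the interneuron genes, *Pax6* was found in 41.4% of 667 nuclei with *Th* and in 5.74% of the others. It was also in 31.2% of 493 nuclei with *Sp8* and in 34.4% of 154 with *Scgn*. *Th* was found in 24% of the *Scgn* nuclei, and in 10.1% of 2733 *Pax6* nuclei. Within the *Th* and *Trh* cluster *Pax6* was in 82 of 135 nuclei with *Th* (60.7%) and in 47.6% of those without. Across the sets the shares ranged widely. *Doc2g*, the most often found of the 10 genes, was in 27.3% of the *Scgn* nuclei, 23.9% of the *Sp8* nuclei and 23.5% of the *Th* nuclei. It was in 12.3%, 12.2% and 12.1% of the nuclei without each of these genes. *Pax6* was in 12.1% of the *Eomes* nuclei and 6.19% of the others, and *Th* in 4.08% and 1.49%. None of the *Tbx21* nuclei held *Scgn*, which allows a share of up to 2.97%. *Scgn* was in only 0.355% of the other nuclei, so its absence does not set *Tbx21* nuclei apart.

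**Figure D4:**
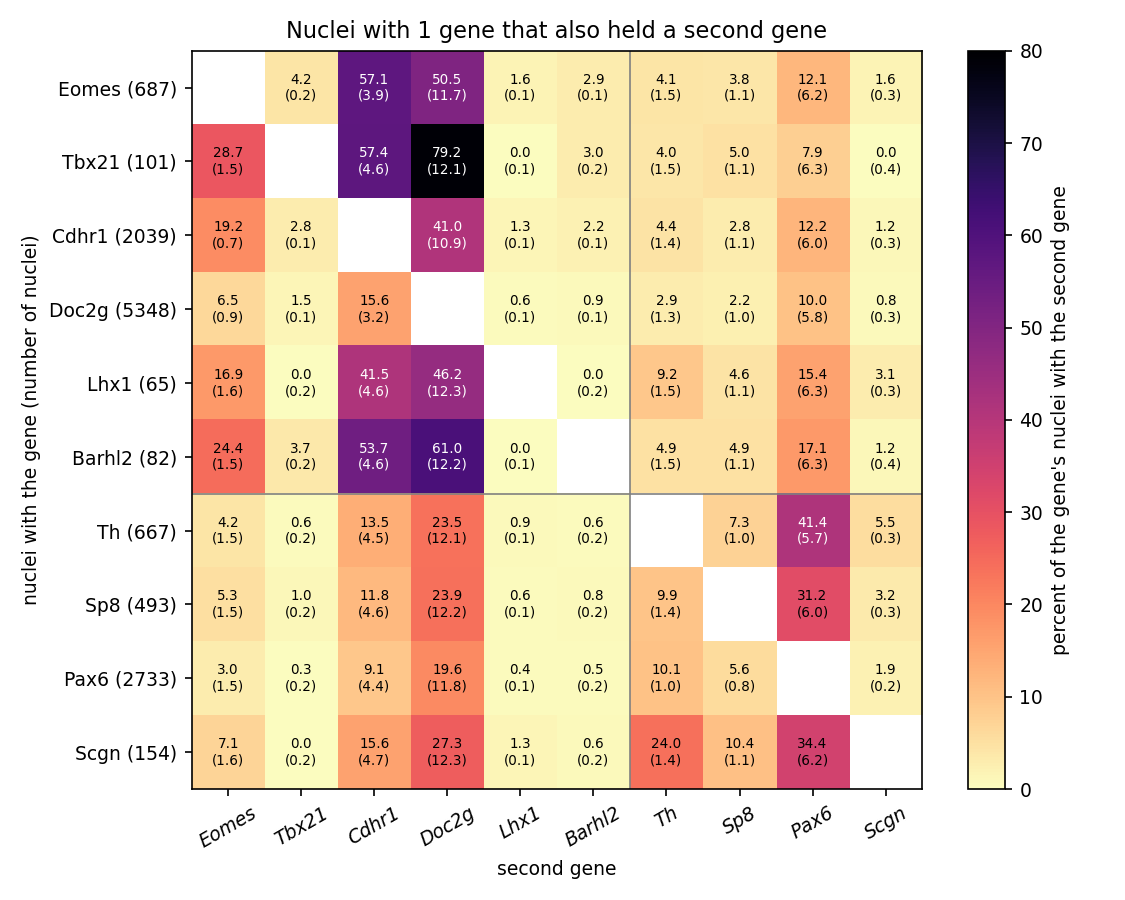
Share (%) of the kept nuclei with the gene of each row, 3 libraries pooled, that also held the gene of each column, with the share among the nuclei without the first gene in parentheses. Within the projection genes the shares reach 79.2% (*Doc2g* in *Tbx21* nuclei), and within the interneuron genes 41.4% (*Pax6* in *Th* nuclei).

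Transmitter markers were read in the nuclei holding each gene. Of nuclei with *Eomes*, 52.7% held only glutamate markers, beside 52.5% of those without it, and 4.95% only GABA markers, beside 9.58%. For *Tbx21* the shares were 60.4% (52.5% without it) and 1.98% (9.53%). Of nuclei with *Th*, 19.2% held only glutamate markers (53% without it) and 30.1% only GABA markers (9.19%), and of those with *Scgn* 18.2% and 25.3%. For *Sp8* the shares were 22.3% and 23.1%, and for *Pax6* 23.9% and 16.8%. Both kinds of marker were found in 38.1% of *Th* nuclei and 29.5% of *Eomes* nuclei, against 11.5% and 11.7% of the nuclei without each gene.

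Counted per nucleus, 37 nuclei of C57BL/6J (0.253%, 0.178 to 0.348), 512 of *Nav1* KO (3.64%, 3.34 to 3.97) and 559 of BTBR (3.78%, 3.48 to 4.1) held 2 or more of the 6 projection genes. At 3 or more the numbers were 12, 192 and 140, and at 4 or more 1, 27 and 14. Most nuclei with 2 or more held the pair *Cdhr1* and *Doc2g*: 449 of the 559 BTBR nuclei, 361 of the 512 *Nav1* KO nuclei and 25 of the 37 C57BL/6J nuclei. The projection cluster took 29.8% of the BTBR nuclei with this pair, against 70.4% for *Nav1* KO and 56% for C57BL/6J. Among all BTBR nuclei, *Doc2g* was found in 15.2% and *Cdhr1* in 8.15%. The part of this wide detection in the pairs was not tested. Of the nuclei with 2 or more, the projection cluster took 51.4% for C57BL/6J, 69.9% for *Nav1* KO and 33.8% for BTBR. Most others lay in 2 clusters. One was led by the astrocyte genes *Slc7a10*, *Btbd17* and *S1pr1* (13.9% of all 1108, median 10746 UMIs in those nuclei). Another was an unnamed cluster (13.4%, 13090 UMIs), led only weakly by *Mhrt* (2.54-fold) and *Rgs9* (2.22-fold). It is not the medium spiny neuron-like cluster, which the same genes lead and which held 1 of the 1108. The median depth was 2258 UMIs in nuclei with none of the 6 genes, and 3457, 4624 and 5912 in those with 1, 2 and 3.

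For the 4 interneuron genes, 12 nuclei of C57BL/6J (0.082%, 0.0424 to 0.143), 215 of *Nav1* KO (1.53%, 1.33 to 1.75) and 234 of BTBR (1.58%, 1.39 to 1.8) held 2 or more. Of these 461 nuclei, 21.7% lay in the *Th* and *Trh* cluster and 7.38% in the *Meis2* and *Tshz1* cluster. A further 26.5% lay in the cluster led by *Slc7a10* and 17.1% in the unnamed cluster led weakly by *Mhrt*. All 4 genes were found together in 1 nucleus of *Nav1* KO and 3 of BTBR. Nuclei with 3 of them had a median of 10942 UMIs. Nuclei with 2 or more genes of both sets numbered 0, 19 and 51 in C57BL/6J, *Nav1* KO and BTBR; the 0 allows a share of up to 0.0205%. How many of these nuclei are doublets was not settled, since the caller used marked 1, 1 and 0 nuclei.

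**Figure D5:**
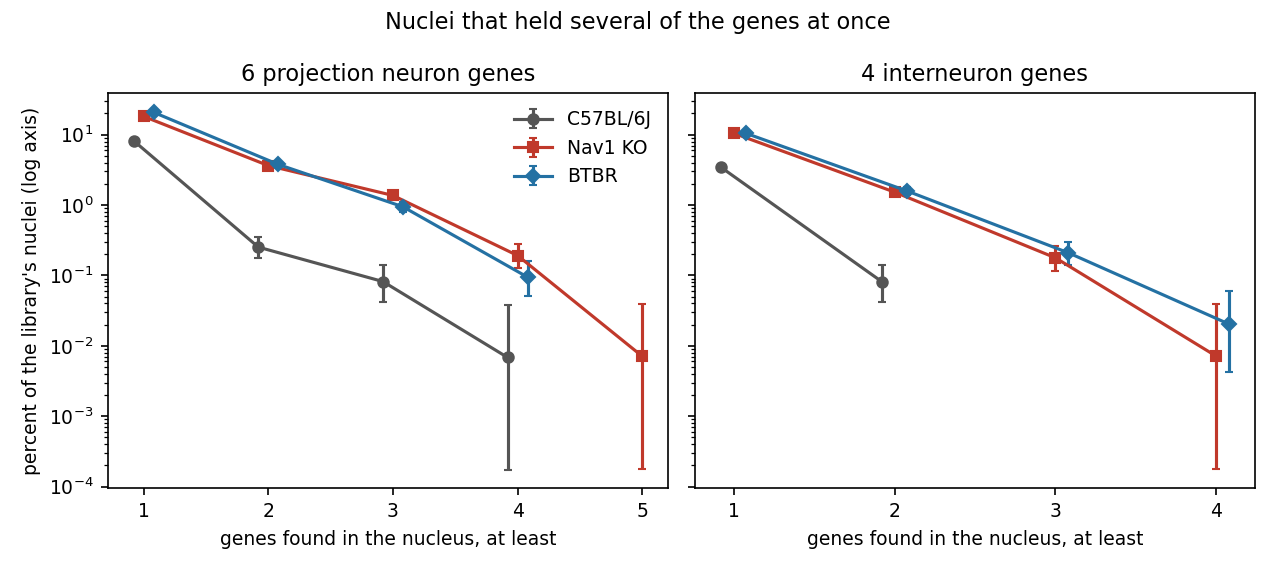
Share of kept nuclei (%, log axis) holding at least the given number of the 6 projection genes or of the 4 interneuron genes, by library; bars are 95% Clopper-Pearson intervals. C57BL/6J lies below the other libraries at 2 or more genes (0.253% against 3.64% and 3.78% for projection genes), while *Nav1* KO exceeds BTBR at 3 or more (192 against 140 nuclei).

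Because the libraries differed in depth, each nucleus was also thinned to 1000 UMIs. *Eomes* was found in 0.0981%, 1.05% and 0.678% of nuclei of C57BL/6J, *Nav1* KO and BTBR, against 0.226%, 2.85% and 1.72% at full depth. *Cdhr1* was found in 0.221%, 2.08% and 3.32% (0.492%, 5.43% and 8.15% at full depth), *Th* in 0.114%, 0.937% and 0.883%, and *Pax6* in 1.34%, 3.46% and 3.6%. The thinning left out 2394, 1249 and 2096 shallower nuclei. For these 4 genes the order of the libraries was the same at both depths. For *Th* and *Pax6* the intervals of *Nav1* KO and BTBR overlapped at each. For the rare *Tbx21*, *Lhx1* and *Barhl2* the order of *Nav1* KO and BTBR turned on thinning, where their intervals overlapped: *Tbx21* was found in 0.441% and 0.237% of nuclei at full depth and in 0.0781% and 0.0946% after thinning.

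Within the projection cluster the genes were not spread evenly. Nuclei were set apart by *Doc2g*, found in 542 (median 3818 UMIs) and not in 347 (median 2127 UMIs), which is a division made from these data and described without a test. *Tbx21* stood at 23.2 CPM in nuclei with *Doc2g* and 3.25 CPM in those without. *Eomes* went the other way, at 133 CPM with and 308 CPM without, though a UMI of it was in 43% and 45% of these nuclei. Its levels with and without *Doc2g* were 122 and 313 CPM in *Nav1* KO and 160.3 and 313 CPM in BTBR. In C57BL/6J they were 154 CPM (87.8 to 249) and 169.6 CPM (62.2 to 369), with overlapping intervals. *Barhl2* stood at 13.8 CPM (9.77 to 18.9) and 5.42 CPM (1.76 to 12.6) and *Lhx1* at 4.36 CPM (2.25 to 7.61) and 10.8 CPM (5.2 to 19.9), both with overlapping intervals. *Cdhr1* stood at 358 and 389 CPM, with opposite orders in the libraries: 277 CPM (255 to 301) with and 362 CPM (318 to 412) without *Doc2g* in *Nav1* KO, but 621 CPM (562 to 685) and 499.6 CPM (413 to 598) in BTBR, where the intervals overlapped. *Ntng1*, the netrin-G1 gene, stood at 3135 and 1146 CPM, *Reln* at 447 and 220.0 CPM, and *Slc17a6*, a vesicular glutamate transporter gene, at 22.5 and 86.7 CPM. Of the 59 nuclei with *Tbx21* in this cluster, 57 held *Doc2g* (96.6%, against 58.4% of the others), and of the 36 with *Barhl2*, 31 did (86.1% against 59.9%).

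The genes with patterns most like each member were named by Pearson's r of log2(CPM + 5) over the 31 clusters, with libraries pooled. This is a description over clusters that share libraries and depth. *Ms4a15* was among the nearest 3 of *Cdhr1* (r = 0.886), *Doc2g* (0.931) and *Barhl2* (0.91). The olfactory receptor genes *Olfr115* (0.927) and *Olfr114* (0.915) were near *Tbx21* and *Barhl2*. *Lhx1* was nearest to *Lbhd2* (0.842). For the interneuron set, *Th* was nearest to *Lgr5* (0.893), *Trh* (0.892) and *Scgn* (0.874), *Sp8* to *Pax6* (0.862), *Pax6* to *Gm27239* (0.93) and *Sall3* (0.895), and *Scgn* to *Frmd7* (0.909).

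Comparing nuclei that hold a gene with all others gave a like picture for most genes. In nuclei with *Eomes*, *Cdhr1* was 12-fold higher (with 5 CPM added to both levels), *Rab37* 11.5-fold, *Ms4a15* 10.5-fold and the olfactory receptor gene *Olfr116* 8.86-fold. In nuclei with *Tbx21*, *Ms4a15* was 12.9-fold and the vomeronasal receptor gene *Vmn1r209* 11.1-fold higher. In the 65 nuclei with *Lhx1*, the leading genes were *Vmn1r209* (30.4-fold), *Ebf3*, a transcription factor gene (13.9-fold), and *Slc17a6* (6.73-fold). The last 2 rest on 26 counts each in these nuclei. *Vmn1r209* was also among the leading genes in nuclei with *Barhl2* (6.8-fold) and *Doc2g* (3.29-fold). In nuclei with *Th*, *Trh* was 12.4-fold, *Lgr5* 7.47-fold and *Sall3* 6.79-fold higher. In nuclei with *Pax6* the leading genes were the astrocyte genes *Slc1a3* (5.64-fold) and *Aqp4* (5.63-fold), and in those with *Sp8* they were *Filip1l* (3.78-fold), *Vip* (3.21-fold) and *Vipr2* (3.21-fold).

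The other genes of dopamine production and handling were read beside *Th*. *Slc6a3*, the dopamine transporter gene, had 2, 44 and 29 counts in C57BL/6J, *Nav1* KO and BTBR (0.0517, 0.863 and 0.592 CPM). *Ddc*, which makes dopamine from L-DOPA, stood at 0.284, 0.53 and 0.572 CPM with overlapping intervals, and reached 13.6 CPM (5.89 to 26.9) in the *Th* and *Trh* cluster. *Slc18a2*, the vesicular monoamine transporter gene, was nearly level at 14.9, 15.3 and 16.4 CPM. Of the 3 dopamine genes with enough counts to compare, 1 was at least 2-fold higher in *Nav1* KO and 2 in BTBR than in C57BL/6J. Of all genes tested, 5.08% and 5.31% were. The pair in BTBR included *Ddc*, just past 2-fold, from 11 counts in C57BL/6J and 28 in BTBR.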

How the data were processed

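For each of 3 libraries of nuclei (C57BL/6J, *Nav1* KO and BTBR, 1 library per group) the authors deposited counts, UMIs per gene and nucleus, as a filtered matrix; the submitters' processing notes name Cell Ranger 6.0.0 and mm10. Whether intron reads or strand were counted is not given in the sources used here. All columns of per-sample values belong to these 3 libraries.

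Barcodes were kept from 200 detected genes up, if less than 10% of their counts were mitochondrial, as in the study's methods, which left 14630, 14056 and 14778 of 15402, 14623 and 15238 barcodes. The series' design text gives the kept numbers for C57BL/6J and *Nav1* KO, and for BTBR a number equal to the barcodes before this filter. Levels are CPM of summed counts over the kept nuclei. A level of 0 is bounded by 3 counts and a share of 0 by 3 nuclei. The bounds of a share of 0 lie below the upper 95% Clopper-Pearson limits, such as 5.52% for 0 of 65 nuclei. Genes with at least 20 counts in a pair of libraries were compared, and at least 2-fold counted as higher or lower. With 1 library per group no test was run; exact 95% intervals cover counting error only.

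Counts were clustered in Seurat 5.3.0 (R 4.3.3; ln of 1 + counts per 10000, 2000 variable genes less the 10 members, 30 principal components, Louvain resolution 1.0), and clusters were named from marker lists and their 10 leading genes. These settings are finer than the study's. Scrublet (scanpy 1.11.5) called 1, 1 and 0 doublets, too few to be used as calls, so no nucleus was removed; its scores served only in an alternative. Shares were also taken after thinning to 1000 UMIs. Other values were computed in Python 3.11.15 with numpy 2.4.6, scipy 1.17.1 and pandas 2.3.3, and the figures drawn with matplotlib 3.10.9; TMM factors came from edgeR 4.0.16. Only the ratios between libraries and their intervals were tested on simulated data. The simulated counts were Poisson, without variation between mice or nuclei, so they do not test the intervals against such variation.

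The members, marker lists and comparisons were chosen with earlier results of these data known. Named genes are the 10 members, the marker and dopamine lists, for each member the 3 genes with the highest Pearson r over clusters of at least 50 nuclei (genes with at least 100 counts) and the 5 with the highest ratio in nuclei holding it (at least 20 counts there), and *Nav1*; genes that lead a cluster, and genes set against *Doc2g* within the projection cluster, were named after their values were seen. One gene that this rule names is not reported here. Alternatives were other filters on nuclei, scaling, thinning, a minimum of 2 UMIs, nuclei without the highest Scrublet scores and other clusterings. Gene positions are from GENCODE M21 and promoters from RefSeq.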

Additional observations from a re-analysis of the deposited data

How the results depend on the processing

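No paired analysis was possible because each group has 1 library, and for the same reason no library could be left out. The counts of the 10 genes at least 2-fold higher stayed within 1.5 times of those reported under every alternative run. These were all barcodes, at least 500 genes, under 5% mitochondrial counts, TMM or median-of-ratios scaling, and no nuclei with the highest Scrublet scores. Nuclei outside the 3 bulb-like clusters, chosen after seeing the data, were another of these alternatives. Counts of genes at least 2-fold lower were not taken under the alternatives. Outside those clusters *Cdhr1* in *Nav1* KO was at 0.358 of BTBR, past 2-fold lower, against 0.657 over all kept nuclei. All 6 projection genes were highest in the same cluster under each clustering tried. The 4 interneuron genes were not: 3 shared a cluster with the study's 10 principal components and resolution 0.3, and with resolution 0.5, where *Pax6* was highest in an astrocyte-like cluster, and 2 when the members stayed among the variable genes, where *Sp8* also moved. At the study's settings the cluster with the highest *Th* held 4004 nuclei, 35.3% of them from the bulb-like clusters, and *Th* stood at 38.7 CPM in it, against 419 CPM in the *Th* and *Trh* cluster; at resolution 0.5 it stood at 120.5 CPM. The share of nuclei with 2 or more projection genes, in C57BL/6J, *Nav1* KO and BTBR, was 0.0889%, 1.42% and 1.12% when a gene needed 2 UMIs, 0.0817%, 0.929% and 0.954% at 1000 UMIs per nucleus, 0.0205%, 0.391% and 0.345% at 500 UMIs, and 0.124%, 1.2% and 2.65% outside the bulb-like clusters. That for interneuron genes was 0%, 0.249% and 0.311% at 2 UMIs, 0.0245%, 0.312% and 0.26% at 1000 UMIs, 0%, 0.0783% and 0.0947% at 500 UMIs, and 1.03% and 1.28% in *Nav1* KO and BTBR outside those clusters. Without the highest Scrublet scores the *Nav1* KO shares were 3.11% and 1.32%. *Nav1* KO and BTBR thus changed places at 2 UMIs and at 500 UMIs for projection genes, and at 1000 UMIs for interneuron genes. Thinning and the 2-UMI minimum lower every share by construction. Depth limits *Tbx21*, *Lhx1*, *Barhl2* and *Scgn*, which had from 4 to 17 counts in C57BL/6J.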

Other observations

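Genes of olfactory and vomeronasal receptors were found with the projection genes. *Olfr116* and *Olfr112* were 8.86-fold and 7.78-fold higher in nuclei with *Eomes* than in other nuclei, and *Vmn1r209* was 11.1-fold higher in nuclei with *Tbx21*; *Olfr114* had an r of 0.915 with *Barhl2* over clusters. The level of *Vmn1r209* was not the same in each library. In projection cluster nuclei with *Doc2g* it stood at 96 CPM (46 to 177) in C57BL/6J, from 10 counts in 20 nuclei. It stood at 184 CPM (166 to 204) in *Nav1* KO and 26.2 CPM (15.3 to 42) in BTBR. The intervals of C57BL/6J and *Nav1* KO overlapped. The galanin gene *Gal* was 3.67-fold higher in nuclei with *Scgn*, and *Spp1*, the osteopontin gene, 5.52-fold higher in nuclei with *Lhx1*, which were only 65.

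The ensheathing glia markers *Fabp7*, *Apod* and *Prss56* had levels of 5.5, 39.2 and 0.982 CPM in the C57BL/6J library. The *Nav1* KO library had 25, 142 and 8.18 CPM, and the BTBR library 10.8, 62.5 and 6.74 CPM. Of the other markers on this list, *Frzb* stood at 3.18, 10.5 and 7.78 CPM in C57BL/6J, *Nav1* KO and BTBR. *Npy* was not raised, at 115, 103 and 113 CPM in the same order. Among the other marker lists, none of 4 excitatory neuron, 4 inhibitory neuron, 4 layer 2/3, 4 layer 5, 4 layer 6, 4 oligodendrocyte precursor or 4 immature neuron markers passed 2-fold in *Nav1* KO or BTBR over C57BL/6J. Of 5 astrocyte markers 3 were higher in *Nav1* KO and 1 in BTBR, and of 4 layer 6b markers 2 and 1. Of 5 Cajal-Retzius cell markers 2 and 1 were higher. Of 4 endothelial markers 2 were higher in *Nav1* KO and 0 in BTBR, and of 4 pericyte or smooth muscle markers 2 and 3, with 1 lower in both. Of 6 cortical interneuron, 4 near-projecting and 6 microglia markers, 0 were higher in *Nav1* KO and 1 of each list in BTBR, and of 5 oligodendrocyte markers 1 was lower in BTBR.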
